A study of Mus musculus with 8 samples.

Results

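Genes of the bone morphogenetic protein (BMP) pathway were followed in WT and CTCF-K20R mouse cells before and after 4 days of differentiation. The 10 genes were taken by name from the gene expression table, which holds 18094 genes, and all 10 were found. They comprise the ligands Bmp2, Bmp4 and Bmp7, the receptors Bmpr1a and Bmpr2, the signal transducer Smad1, the inhibitors Smad6, Smad7 and Bambi that act in or on the receiving cell, and the secreted antagonist Chrd (chordin). All 10 passed the filter on low values, set at an average of 10 normalized counts.

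The study used RNA-seq to compare 4 groups of 2 libraries each. WT mESCs (day 0) were E14Tg2A cells, a mouse embryonic stem cell line, kept on inactivated mouse embryo fibroblasts in serum medium with LIF and the 2i inhibitors. CTCF-K20R mESCs (day 0) were the same line after CRISPR/Cas9 editing with a donor vector, which replaced lysine 20 of the chromatin protein CTCF with arginine, and were kept in the same way. WT and CTCF-K20R EBs (day 4) were the embryoid bodies formed from these cells in hanging drops with serum and without LIF. The edited colonies were chosen by drug selection, and the labels do not say how many lines were sequenced, so that the effect of the mutation and that of the line cannot be told apart.

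BMP ligands are secreted dimers of the TGF-beta superfamily that bring type I receptors (such as BMPR1A) and type II receptors (such as BMPR2) together on the cell surface. The activated type I receptor phosphorylates SMAD1, SMAD5 and SMAD9, which enter the nucleus with SMAD4 and switch on targets such as the Id genes. Chordin and noggin bind the ligands outside the cell, BAMBI is a receptor-like protein without a kinase, and SMAD6 and SMAD7 block signalling inside the cell. In the early mouse embryo BMP4 is needed for mesoderm, whereas chordin and noggin are made by the organizer and its axial derivatives.

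Totals of normalized counts ran from 19412659 to 21311513 over the 8 libraries, and 3 reads, taken as the limit of detection, corresponded to 2.44 to 3.44 normalized counts. This limit covers counting error only. In both WT pairs the 2 libraries differed by less than the sampling noise (the mean ratio of observed to expected squared difference was 0.304 on day 0 and 0.275 on day 4), so each pair was averaged and counted as 1 sample. The CTCF-K20R pairs differed by more (3.88 and 4.26) and were kept as 2 samples a day. In the main fit every error and p-value therefore rests on the spread within both CTCF-K20R pairs, shared over the days. That spread, which may be technical, was drawn towards a trend over all genes. The WT change between the days has no test. Ctcf itself averaged 3954 and 4509 normalized counts in WT and CTCF-K20R mESCs and 4249 and 4849 in the EBs, and the point mutation cannot be read from these values. The pluripotency markers summed to 104210 to 105360 normalized counts in the 4 mESC libraries, with 8 of 8 markers above the limit in each. Of the markers of the fibroblasts the mESCs grew on, 7 of the 8 listed were in the table. In the mESC libraries Dcn and Postn were at 0 and Lum was at 0 in 3 of the 4, and the sum was 501 to 511 normalized counts in WT and 150 to 160 in CTCF-K20R, most of it from Thy1. Col1a1 and Col1a2 were above the limit in each mESC library. Col1a1 read 17.4 and 16.0 in WT and 34.3 and 32.2 in CTCF-K20R mESCs. Col1a2 read 28.1 and 26.0 in WT and 21.6 and 12.2 in CTCF-K20R mESCs.

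On day 4, 7 of the 10 genes were lower in CTCF-K20R EBs than in WT EBs and 1 was higher. Among all 15767 genes tested by the same rule, 8.65% were lower and 6.89% were higher. The rule was an absolute log2 fold change above 1 with an adjusted p under 0.05 (limma with Benjamini-Hochberg adjustment over all genes tested). The lower genes were the 3 ligands, Smad1, Smad6, Bambi and Chrd, the higher gene was Smad7, and the receptors Bmpr1a and Bmpr2 were not called. Here and below, fell and rose on a given day mean lower and higher in CTCF-K20R than in WT on that day. Over the 10 genes the median on day 4 was -1.81 (log2), against 0.01 over all genes tested. On day 0 none of the 10 was called in either direction, where 2.6% of the genes tested were lower and 1.19% higher, and 1 of the 10 (Smad1) had an adjusted p under 0.05 without the minimum fold. On that day 4 of the 10 (Bmp2, Bmp4, Bmp7 and Smad1) had an unadjusted limma p under 0.05, and 1 (Bmp2) was called when all 8 libraries entered as separate samples. All log2 fold changes are on the log2(normalized counts + 1) scale, which understates the change of genes with few reads.

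**Figure D1:**
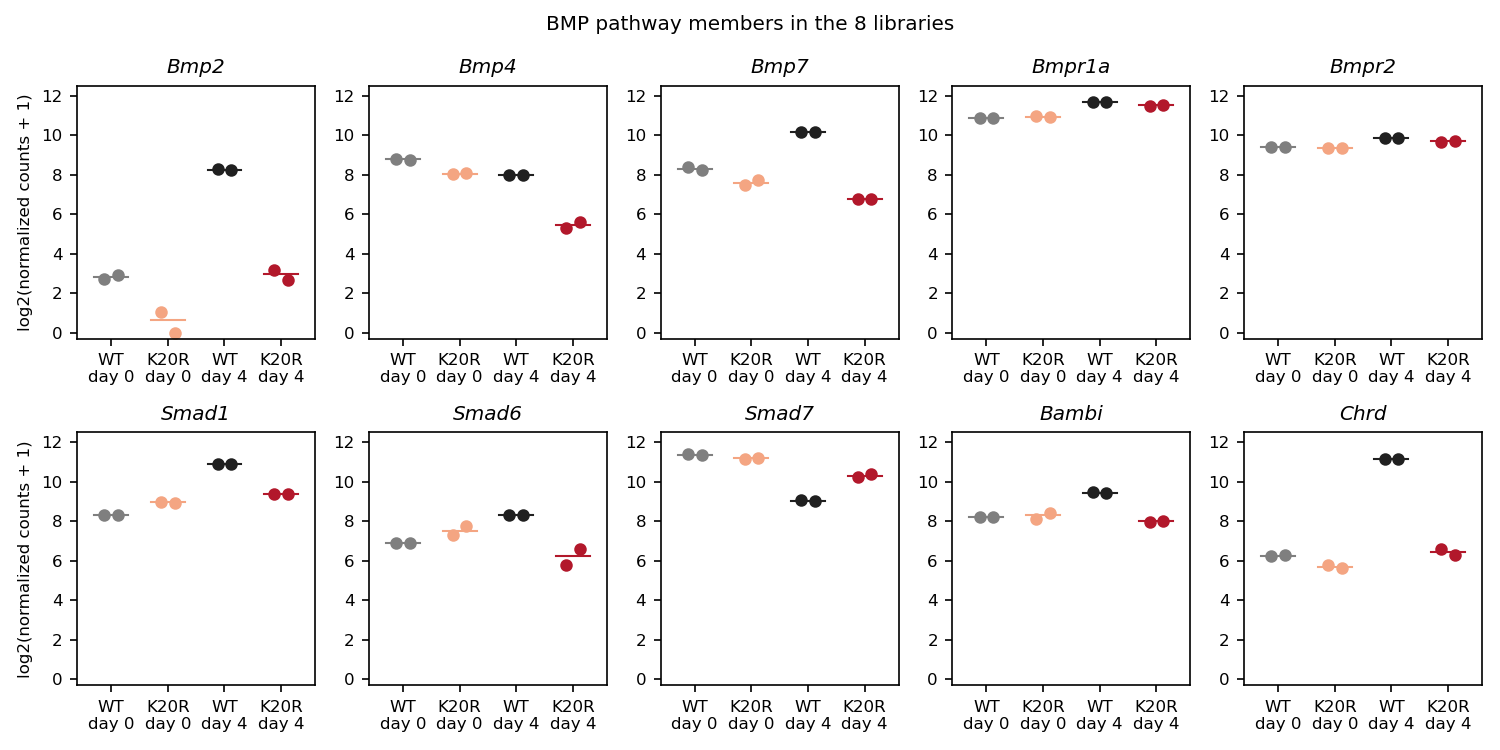
Normalized counts of the 10 genes in the 8 libraries, as log2(normalized counts + 1) on the vertical axis; each point is a library and each line is the mean of the 2 libraries of a group. In 7 panels both CTCF-K20R EB libraries lie far below both WT EB libraries, in the Smad7 panel they lie above, and in the Bmpr1a and Bmpr2 panels the gap is small.

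Promoter sequences are shown for the genes that changed on day 4 and for which the RefSeq table (build GRCm38.p6) has a start site. These 4 genes share a lower level in CTCF-K20R EBs, but not their change in WT or their direction on day 0. The table held windows for 6 of the 10 genes (Bmp4, Bmpr1a, Bmpr2, Chrd, Smad1 and Smad6), each of 300 bases from 250 before the start site to 50 after it. Capitals mark matches on either strand to GGCGCC or GGAGCC, which are GC-rich SMAD elements, to GTCTAGAC, the palindromic SMAD-binding element, and to AGGGGGC, the core of the CTCF motif. The sequences read 5′ to 3′ on the strand of the gene.
Bmp4 promoter, chr14:46390620-46390919, minus strand: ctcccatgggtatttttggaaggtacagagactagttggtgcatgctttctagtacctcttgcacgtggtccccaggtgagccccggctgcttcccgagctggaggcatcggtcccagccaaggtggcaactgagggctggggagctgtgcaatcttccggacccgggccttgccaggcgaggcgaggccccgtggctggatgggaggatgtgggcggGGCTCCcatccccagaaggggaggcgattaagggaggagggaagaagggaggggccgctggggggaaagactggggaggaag
Smad1 promoter, chr8:79399379-79399678, minus strand: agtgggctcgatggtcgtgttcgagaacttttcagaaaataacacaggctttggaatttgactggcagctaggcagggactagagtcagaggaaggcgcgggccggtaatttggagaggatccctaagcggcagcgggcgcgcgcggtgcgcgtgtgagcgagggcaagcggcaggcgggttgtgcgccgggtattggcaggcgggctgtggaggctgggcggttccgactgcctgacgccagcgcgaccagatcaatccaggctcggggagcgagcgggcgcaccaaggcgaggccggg
Smad6 promoter, chr9:64022010-64022309, minus strand: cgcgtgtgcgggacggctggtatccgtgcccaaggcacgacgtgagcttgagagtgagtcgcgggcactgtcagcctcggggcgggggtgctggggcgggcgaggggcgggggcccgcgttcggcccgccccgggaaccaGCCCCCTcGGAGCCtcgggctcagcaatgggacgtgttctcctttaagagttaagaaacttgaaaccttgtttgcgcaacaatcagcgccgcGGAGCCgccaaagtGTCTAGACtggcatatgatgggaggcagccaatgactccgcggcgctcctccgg
Chrd promoter, chr16:20732877-20733176, plus strand: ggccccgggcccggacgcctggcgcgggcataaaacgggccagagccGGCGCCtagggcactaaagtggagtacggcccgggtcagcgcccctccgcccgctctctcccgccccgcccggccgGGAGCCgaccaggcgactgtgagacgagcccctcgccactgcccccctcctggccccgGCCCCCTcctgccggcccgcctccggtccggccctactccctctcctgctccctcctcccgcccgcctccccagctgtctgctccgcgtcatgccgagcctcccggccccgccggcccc
The Bmp4 window held 1 match to GGAGCC (as its reverse complement, at -32 to -27 from the start site), and the Smad1 window held none of the 4 motifs. The Smad6 window held 2 matches to GGAGCC, 1 to GTCTAGAC that spans the start site, and 1 to AGGGGGC as its reverse complement. The Chrd window held 1 match each to GGCGCC and GGAGCC and 1 to AGGGGGC as its reverse complement, at -69 to -63 from the start site. Of all 32851 windows of the same length in the table, 11.9% held GGCGCC, 30.8% GGAGCC, 0.213% GTCTAGAC and 10.6% AGGGGGC. The windows of the receptors Bmpr1a and Bmpr2, which were not called, each held 1 match to GGCGCC. No motif searched was found in all windows of called genes and in none of the receptors' windows, and a match in such a window is a string of letters and not a measured binding site.

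All 3 ligands fell on day 4, Bmp2 the furthest of the 10 genes. Bmp2 encodes a ligand of the same subgroup as BMP4 and lies on chromosome 2 of GRCm38 (GENCODE vM21), from 133552159 to 133562885 on the plus strand. In EBs it read 309.8 and 298.5 normalized counts in WT and 8.04 and 5.39 in CTCF-K20R. In mESCs it read 5.62 and 6.58 in WT and 1.09 and 0 in CTCF-K20R. Bmp2 was thus plentiful only in WT EBs among the 4 groups, and the WT mESC and CTCF-K20R EB libraries overlapped. It passed the filter only through WT EBs, so on day 4 it could be called only lower. Its log2 fold change on day 4 was -5.33 (SE 0.66, adjusted p = 0.0024 from limma), and its mean was 45.3-fold higher in WT EBs. Both CTCF-K20R mESC libraries were at or under the limit of detection, so on day 0 WT was at least 1.84-fold higher (limit per library, the higher of the pair), and the fitted difference was not called (adjusted p = 0.0751 from limma).

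Bmp4 is the ligand made by the epiblast and extraembryonic ectoderm of the early embryo, and lies on chromosome 14 from 46383520 to 46390669 on the minus strand. It overlaps Gm15217 and Gm15222 on the other strand, and since the use of strand in the counting is not given, reads of these genes cannot be told apart from its own. It read 445.8 and 433.7 normalized counts in WT mESCs, 262.9 and 269.0 in CTCF-K20R mESCs, 254.3 and 255.9 in WT EBs and 38.95 and 47.7 in CTCF-K20R EBs. It was thus the 1 ligand with its highest level in WT mESCs, and the 4 groups did not overlap. On day 4 Bmp4 fell by 2.54 on the log2 scale (SE 0.201, adjusted p = 0.000541 from limma), a mean 5.89-fold higher in WT. On day 0 the log2 fold change was -0.72 (SE 0.201), which did not pass the test (adjusted p = 0.0694 from limma).

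Bmp7 encodes a ligand of a second subgroup that can pair with BMP2 or BMP4, and lies on chromosome 2 from 172868012 to 172940321 on the minus strand. It read 330.2 and 301.3 normalized counts in WT mESCs, 174.7 and 212.4 in CTCF-K20R mESCs, 1163 and 1168 in WT EBs and 106.9 and 108.6 in CTCF-K20R EBs. From mESCs to EBs it went up in WT and down in CTCF-K20R, and no 2 groups overlapped. On day 4 the log2 fold change was -3.42 (SE 0.174, adjusted p = 0.000143 from limma), a mean 10.8-fold higher in WT EBs. The difference on day 0 was -0.71, under the minimum fold, and its adjusted p was also just outside the threshold (adjusted p = 0.0504 from limma).

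The receptors stood apart from the ligands. Bmpr1a encodes a type I receptor kinase and lies on chromosome 14 from 34410734 to 34503341 on the minus strand, where it overlaps the antisense gene Gm17110. In EBs it read 3259 and 3301 normalized counts for WT and 2912 and 2939 for CTCF-K20R, and 1887, 1849, 1989 and 1923 in the 2 WT and the 2 CTCF-K20R mESC libraries. The EB libraries of the genotypes did not overlap, but the gap was small, with a log2 fold change of -0.16 (SE 0.05, adjusted p = 0.0483 from limma) and thus under the minimum fold. Bmpr2, the type II receptor kinase, lies on chromosome 1 from 59763400 to 59879014 on the plus strand and overlaps Gm38125 on the same strand. It read 919.4 and 921.6 normalized counts in EBs of WT, 814.7 and 837.1 in CTCF-K20R EBs, 687.9 and 681.6 in WT mESCs and 643.7 and 646.6 in CTCF-K20R mESCs. Its log2 fold change on day 4 was -0.16 (SE 0.078), which did not pass the test (adjusted p = 0.166 from limma). Both receptors read higher in EBs than in mESCs in each genotype, with no test for WT.

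Smad1 encodes the transducer that the type I receptors phosphorylate, and lies on chromosome 8 from 79338395 to 79399518 on the minus strand. It read 321.1 and 318.9 normalized counts in WT mESCs, 506.9 and 493.9 in CTCF-K20R mESCs, 1888 and 1884 in WT EBs and 666.4 and 660.4 in CTCF-K20R EBs. The CTCF-K20R libraries were thus above the WT libraries on day 0 and below them on day 4, without overlap. The log2 fold change was 0.64 on day 0 (SE 0.084, adjusted p = 0.00922 from limma, under the minimum fold) and -1.51 on day 4 (SE 0.084, adjusted p = 0.000178 from the same test).

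The inhibitors that act in or on the receiving cell did not move as a group, since Smad6 and Bambi fell and Smad7 rose on day 4. Smad6, which encodes an inhibitory SMAD that acts mainly on BMP signals, lies on chromosome 9 from 63953076 to 64022059 on the minus strand. It read 118.1 and 116.7 normalized counts in WT mESCs, 154.6 and 212.6 in CTCF-K20R mESCs, 317.0 and 315.0 in WT EBs and 54.5 and 94.4 in CTCF-K20R EBs. The CTCF-K20R EB libraries were the lowest of the 8, but differed from each other by 1.73-fold, the widest such gap among the genes above the limit of detection. The log2 fold change on day 4 was -2.12 (SE 0.38, adjusted p = 0.00859 from limma). Without replicate 1 of the CTCF-K20R EBs it was -1.73 and no longer passed (adjusted p = 0.062 from limma).

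Smad7 encodes the inhibitory SMAD that acts on both BMP and TGF-beta signals, and lies on chromosome 18 from 75367529 to 75395935 on the plus strand. It read 2744 and 2598 normalized counts in WT mESCs, 2315 and 2385 in CTCF-K20R mESCs, 535.3 and 523.8 in WT EBs and 1207 and 1324 in CTCF-K20R EBs. It was highest in mESCs, and CTCF-K20R EBs lay between the mESCs and the WT EBs without overlap. On day 4 Smad7 was higher in CTCF-K20R than in WT (log2 fold change 1.25, SE 0.076, adjusted p = 0.000228 from limma), a mean 2.39-fold that of WT.

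Bambi, the receptor-like inhibitor, lies on chromosome 18 from 3507923 to 3516404 on the plus strand. It read 296.5 and 295.9 normalized counts in WT mESCs, 279.4 and 346.4 in CTCF-K20R mESCs, 709.1 and 695.0 in WT EBs and 250.6 and 255.9 in CTCF-K20R EBs. The genotypes overlapped in mESCs and were apart in EBs. The log2 fold change on day 4 was -1.47 (SE 0.16, adjusted p = 0.00167 from limma).

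Chrd, the secreted antagonist that binds BMP ligands outside the cell, lies on chromosome 16 from 20733127 to 20742384 on the plus strand and overlaps Thpo on the other strand. It read 73.9 and 77.4 normalized counts in WT mESCs, 53.7 and 47.9 in CTCF-K20R mESCs, 2287 and 2265 in WT EBs and 94.9 and 76.8 in CTCF-K20R EBs. WT EBs thus stood far above the other 3 groups, and the CTCF-K20R EB and WT mESC libraries overlapped. On day 4 the log2 fold change was -4.72 (SE 0.23, adjusted p = 0.000133 from limma), a mean 26.5-fold higher in WT. A ligand antagonist thus fell in the same EBs as the ligands.

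Read by library order alone, 9 of the 10 genes were lower in both CTCF-K20R EB libraries than in both WT EB libraries and 1 was higher. Since the WT pairs are so close, such an order was common, at 41.7% and 43.3% of all genes tested.

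**Figure D2:**
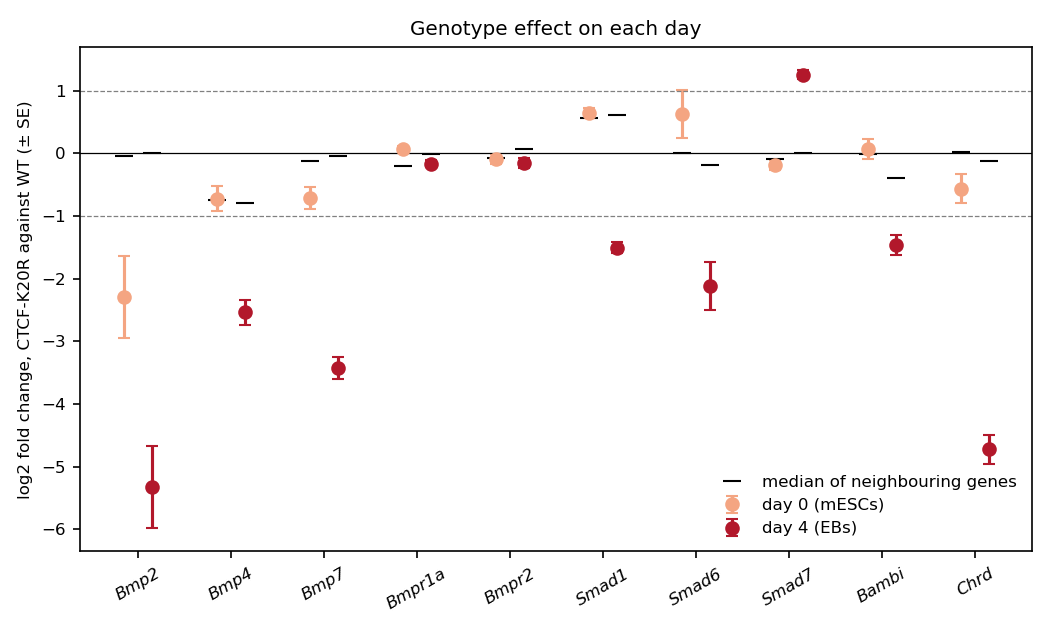
Log2 fold change of CTCF-K20R against WT for each gene on day 0 and on day 4 (points, with the standard error from the fit), with the median of the 50 neighbouring genes (29 for Bambi) as a short black line and dashed lines at 1 and -1. The day 4 points of 7 genes lie below -1 and that of Smad7 lies above 1, while the day 0 points other than that of Bmp2 lie between the dashed lines.

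The genotype effect was then compared between the days in the same fit. The difference (day 4 minus day 0) passed the test, at an adjusted p under 0.05 with no minimum fold, in the lower direction for 6 genes and in the higher direction for 1, against 12% and 14.7% of all genes tested. The 6 were Chrd (-4.15 on the log2 scale, adjusted p = 0.0011), Smad6 (-2.75, adjusted p = 0.018), Bmp7 (-2.71, adjusted p = 0.0016), Smad1 (-2.15, adjusted p = 0.000421), Bmp4 (-1.81, adjusted p = 0.00902) and Bambi (-1.54, adjusted p = 0.00789), and the other was Smad7 (1.44, adjusted p = 0.000946), all from limma. Of the CTCF-K20R EBs, leaving out replicate 1 left 3 genes in the lower direction, with Bmp4 (-1.67, adjusted p = 0.0553), Smad6 (-2.36, adjusted p = 0.0808) and Bambi (-1.52, adjusted p = 0.0828) no longer passing. Leaving out replicate 2 left 4, without Smad6 (-3.14, adjusted p = 0.0606) and Bambi (-1.55, adjusted p = 0.0803). Without replicate 2 of the CTCF-K20R mESCs, Smad6 did not pass (-2.52, adjusted p = 0.0624) and Bmp2 did (-3.57, adjusted p = 0.0484). The values of Chrd, Bmp7, Smad1 and Smad7 passed whichever library was left out. The difference did not pass for Bmp2 (-3.03, SE 0.93, adjusted p = 0.0656), for Bmpr1a (-0.23, adjusted p = 0.0657) or for Bmpr2 (-0.07, adjusted p = 0.672).

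The change from day 0 to day 4 was also read within each genotype. In WT, where 1 sample a day allows no test, 6 of the 10 genes were more than 2-fold higher on day 4 and 1 was more than 2-fold lower, against 18.9% and 16.3% of all genes tested. The log2 change in WT was 5.43 for Bmp2, 4.89 for Chrd, 2.56 for Smad1, 1.88 for Bmp7, 1.42 for Smad6, 1.24 for Bambi and -2.33 for Smad7. Bmpr1a (0.81), Bmpr2 (0.43) and Bmp4 (-0.78) were within 2-fold. In CTCF-K20R, with 2 samples a day, 1 gene was called higher and 2 lower, against 14.5% and 11.6% of all genes tested. The gene that rose was Bmp2 (log2 change 2.39, adjusted p = 0.0119 from limma), which stayed far under its WT level and was at least 2.03-fold above the limit of detection in mESCs. The call of Bmp2 was lost without replicate 1 (2.14, adjusted p = 0.0815) or replicate 2 (2.64, adjusted p = 0.0565) of the CTCF-K20R EBs. The genes that fell were Bmp4 (-2.60, adjusted p = 0.000101) and Smad6 (-1.33, adjusted p = 0.014), and the call of Smad6 was lost without replicate 1 of the CTCF-K20R EBs (-0.93, adjusted p = 0.0965) or replicate 2 of the CTCF-K20R mESCs (-1.10, adjusted p = 0.0859). Chrd, the gene with the second largest WT value here, changed by 0.74 in CTCF-K20R (adjusted p = 0.019, under the minimum fold), and Smad1 by 0.41 (adjusted p = 0.00408, under the minimum fold).

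**Figure D3:**
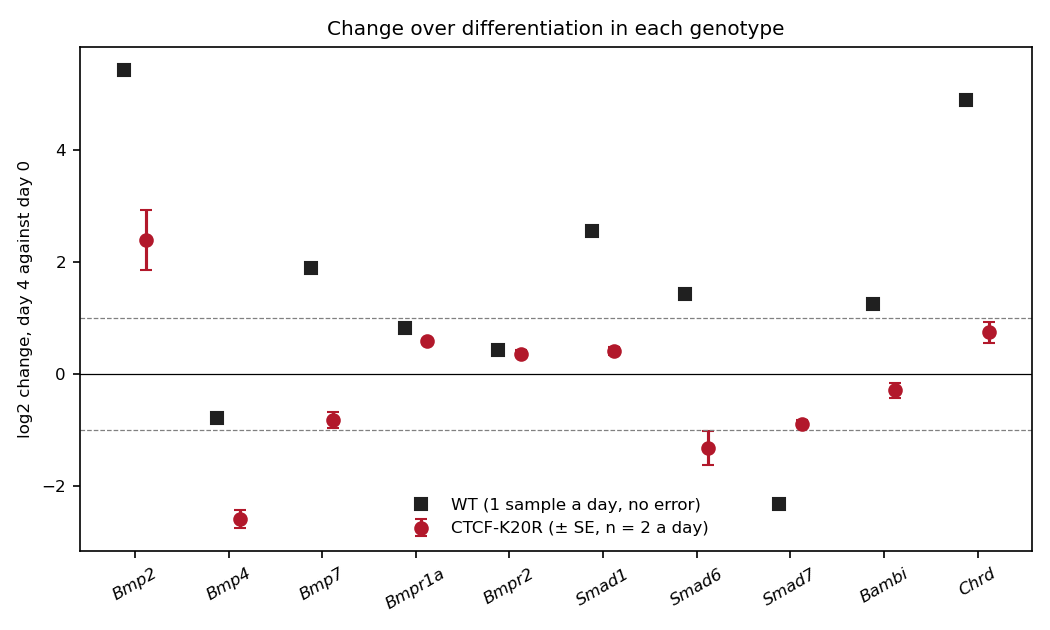
Log2 change from day 0 to day 4 of each gene in WT (squares, 1 sample a day and so without an error) and in CTCF-K20R (circles, with the standard error from the fit); dashed lines mark 1 and -1. The WT squares of Bmp2, Chrd, Smad1, Bmp7, Smad6 and Bambi lie above 1, and of these genes only Bmp2 has a CTCF-K20R circle above 1.

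Levels of different genes were compared per kilobase of the longest annotated transcript. In WT EBs the order was Bmpr1a (551 normalized counts per kb), Chrd (517), Smad1 (500), Bmp7 (318), Bambi (138), Smad7 and Bmp4 (both 124), Smad6 (106), Bmp2 (85.6) and Bmpr2 (71.4). Chrd thus stood above each of the 3 ligands in WT EBs. In CTCF-K20R EBs the order was Bmpr1a (491), Smad7 (296), Smad1 (176), Bmpr2 (64.0), Bambi (49.9), Bmp7 (29.4), Smad6 (25.1), Bmp4 (20.99), Chrd (19.5) and Bmp2 (1.89). In mESCs the level per kb of Smad7 was the highest of the 10 in WT (624) and in CTCF-K20R (549), and Bmp4 was the most abundant ligand in both (213 and 129). These are levels of gene totals over several transcripts, so the length is only approximate.

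Bmp4 and Smad1 lie in stretches of the genome in which many genes were shifted alike. The 25 tested genes on each side of Bmp4 on chromosome 14 had a median shift of -0.75 (log2 fold change) in mESCs, close to the -0.72 of Bmp4 itself, and 40 of the 50 were lower in CTCF-K20R. On day 4 their median was -0.79, and 2 of the 50 fell further than Bmp4. The 50 genes around Smad1 on chromosome 8 had a median of 0.57 on day 0, where Smad1 had 0.64, and 46 of the 50 were higher in CTCF-K20R. On day 4 their median was 0.61 and Smad1 lay at -1.51, with 4 of the 50 below it. Relative to the neighbours, Bmp4 was at 0.027 on day 0 and -1.74 on day 4, and Smad1 at 0.077 and -2.12. A median beyond 0.5 in either direction was found around 4.1% of the genes with a position on day 0 and 3.67% on day 4. Of the other 8 genes, Bambi had the neighbours with the median furthest from 0 on day 4 (-0.39 over 29 genes, near the end of chromosome 18), and Bmpr1a on day 0 (-0.20). The part of these stretches in the levels of Bmp4 and Smad1 was not tested.

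**Figure D4:**
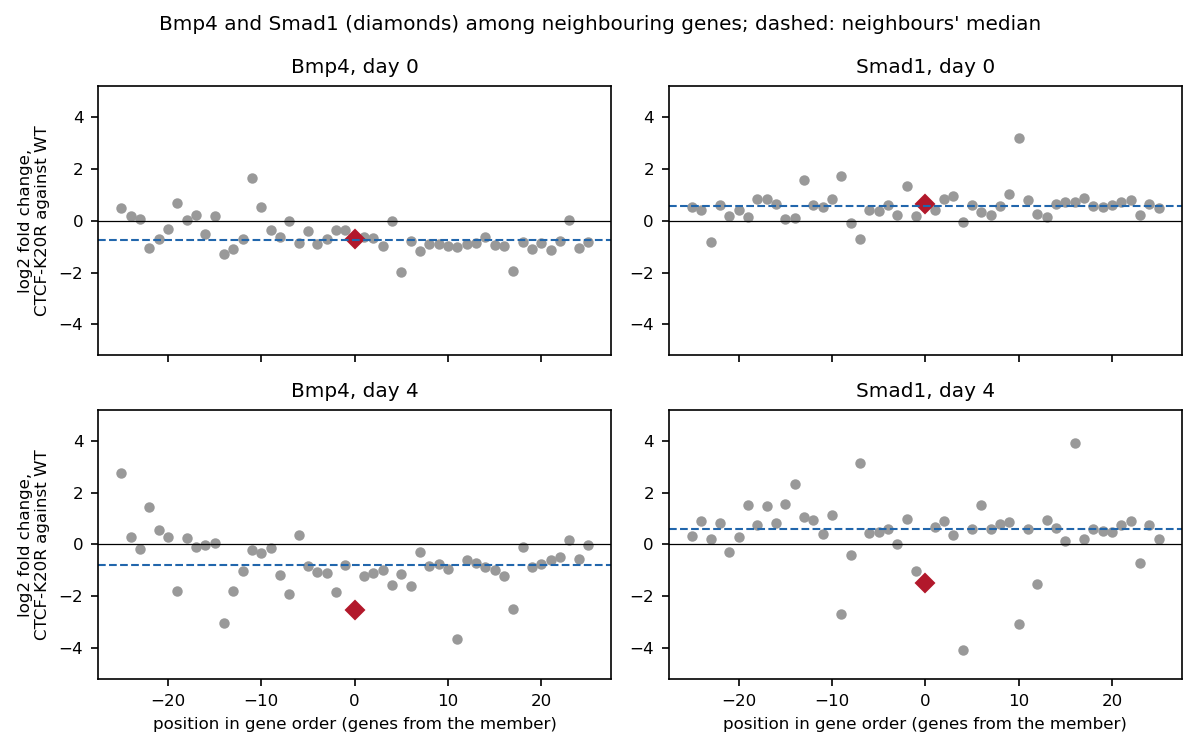
Log2 fold change of CTCF-K20R against WT for Bmp4 and Smad1 (diamonds) and for the 25 tested genes on each side in gene order (grey points), on day 0 (top) and day 4 (bottom), with the neighbours' median dashed. On day 0 both diamonds lie at the dashed line, and on day 4 both lie below it.

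Other genes of the pathway were read from a list of 52, of which 45 were in the table and 40 passed the filter. On day 4, 10 of the 40 fell and 2 rose, against 8.65% and 6.89% of all genes tested. Of those that fell, Bmp5, Gdf10 and the antagonists Nog, Cer1 and Bmper passed the filter only through WT EBs. On day 4 these genes could thus be called only lower. The median log2 fold change of the 40 was -0.39. Of the 8 other ligands tested, Bmp5 and Gdf10 fell and Gdf3 rose. Bmp5 read 63.4 and 62.7 normalized counts in WT EBs but 0 in both CTCF-K20R EB libraries, so WT was at least 18.3-fold higher. Gdf10 read 61.3 and 59.1 in WT EBs and 1.15 and 0 in CTCF-K20R EBs, so the WT level was above it by at least 17.5-fold. Gdf3, a ligand of pluripotent cells, read 45.3 and 48.0 in WT EBs and 467.2 and 482.3 in CTCF-K20R EBs (log2 fold change 3.32, adjusted p = 2.8e-05 from limma).

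The secreted antagonists other than Chrd included 4 of 11 that fell and 1 that rose on day 4. Over all genes tested the shares were 8.65% and 6.89%. Nog (noggin) read 103.4 and 103.9 in WT EBs and 3.51 and 1.07 in CTCF-K20R EBs (log2 fold change -5.10, adjusted p = 0.00225 from limma). Cer1, an antagonist of BMP and Nodal ligands, read 7907 and 7871 in WT EBs and 8.01 and 8.76 in CTCF-K20R EBs (log2 fold change -9.72, adjusted p = 0.000231 from limma). Bmper, which binds BMPs outside the cell, and Fst (follistatin), which binds activins and some BMPs, had log2 fold changes of -6.76 and -2.10 (adjusted p = 0.00109 and 7.3e-05). Fstl3 rose by 2.03 (adjusted p = 0.0113). Of the 4 genes listed for proteins that cleave or carry chordin, 3 were in the table and tested, and the proteases Bmp1 (-1.87, adjusted p = 0.0031) and Tll1 (-1.72, adjusted p = 0.0182) fell, both from limma. Without replicate 2 of the CTCF-K20R EBs, Fstl3 (1.698, adjusted p = 0.0566) and Tll1 (-1.46, adjusted p = 0.0734) did not pass.

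Of the 8 other receptors and co-receptors tested, 1 fell on day 4, the co-receptor Rgma (log2 fold change -1.42, adjusted p = 0.00414 from limma). Over all genes tested, 8.65% were lower and 6.89% higher on day 4. Smad5, which shares the role of Smad1, fell by 1.04 on the log2 scale (adjusted p = 0.00145 from limma), just past the minimum fold. Without replicate 1 of the CTCF-K20R EBs, Smad5 was at -0.92 and Rgma at -1.53 (adjusted p = 0.0505), and without replicate 2 Rgma was at -1.32 (adjusted p = 0.0589), so that these calls were lost. Smad4, the shared partner, had 0.22 and Smad9 -1.47 (adjusted p = 0.0629), and both were not called; they are named outside the naming rule, after their values were seen. None of the 7 listed negative regulators in the cell (ubiquitin ligases, repressors and a phosphatase) was called on day 4, and their log2 fold changes ranged from -0.46 to 0.81. On day 0, Acvrl1 (a type I receptor, -2.07, adjusted p = 0.0405) and Tsku (-1.10, adjusted p = 0.0124) fell and Bmp1 rose (1.27, adjusted p = 0.0281), all from limma, among the 40 genes. Over all genes tested, 2.6% were lower and 1.19% higher on day 0. The calls of Acvrl1, Tsku and Bmp1 were each lost when 1 CTCF-K20R library was left out. This held for any of the 4 for Acvrl1 and Bmp1, and for all but replicate 1 of the mESCs for Tsku. The values there were -2.29 to -1.85 for Acvrl1, -1.10 to -1.05 for Tsku and 1.22 to 1.31 for Bmp1. Without a CTCF-K20R EB library no gene at all was called on day 0, so the day 0 losses in those fits were fixed in advance. Calls over all genes were also fewer on day 4 in those fits, and on day 0 without a CTCF-K20R mESC library.

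Most known target genes of BMP signalling that were tested were lower in CTCF-K20R EBs. Of 11 listed, 10 were tested, 8 fell on day 4 and none rose (limma; 8.65% and 6.89% of all genes tested), with a median log2 fold change of -2.00. Without either replicate of the CTCF-K20R EBs the count was 5. Id1, a helix-loop-helix inhibitor of differentiation, read 2897 and 2855 in WT EBs and 587.7 and 535.5 in CTCF-K20R EBs, against 143.0 to 161.9 in the 4 mESC libraries. Its log2 fold change on day 4 was -2.36 (adjusted p = 0.000152 from limma). Id1 thus read higher in the EBs of both genotypes than in mESCs, and lower in CTCF-K20R EBs than in WT EBs. The others that fell were Id3 (-1.65), Id4 (-1.31), the homeobox genes Msx1 (-3.61) and Msx2 (-5.23), Atoh8 (-3.31), Hey1 (-1.02) and Gata3 (-2.88). Atoh8 passed the filter only through WT EBs, so on day 4 it could be called only lower. Id2 (0.28, adjusted p = 0.335) and Gata2 (-1.55, adjusted p = 0.0558) were not called, and are named outside the naming rule. On day 0 Msx2 was the 1 target called, and it was higher in CTCF-K20R (1.92, adjusted p = 0.0399 from limma), opposite to its direction on day 4. Over all genes tested, 1.19% were higher and 2.6% lower on day 0. The call of Msx2 was lost without any 1 of the 4 CTCF-K20R libraries, where its day 0 value was 1.71 to 2.14. Without a CTCF-K20R EB library, however, no gene at all was called on day 0, so the loss in those fits was fixed in advance. Calls over all genes were also fewer on day 4 without a CTCF-K20R EB library, and on day 0 without a CTCF-K20R mESC library. Leaving out a CTCF-K20R mESC library or a WT EB library changed the day 4 calls over all genes little. On day 4, Msx1 (adjusted p = 0.167 and 0.143) and Hey1 (0.0852 and 0.0671) were lost without replicate 1 and without replicate 2, Gata3 (0.0531) without replicate 1 and Id4 (0.0833) without replicate 2. Hey1, at -0.99, was also under the minimum fold without replicate 1 of the WT EBs, and Id4 missed the threshold without replicate 1 or 2 of the CTCF-K20R mESCs (adjusted p = 0.0607 and 0.0603).

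**Figure D5:**
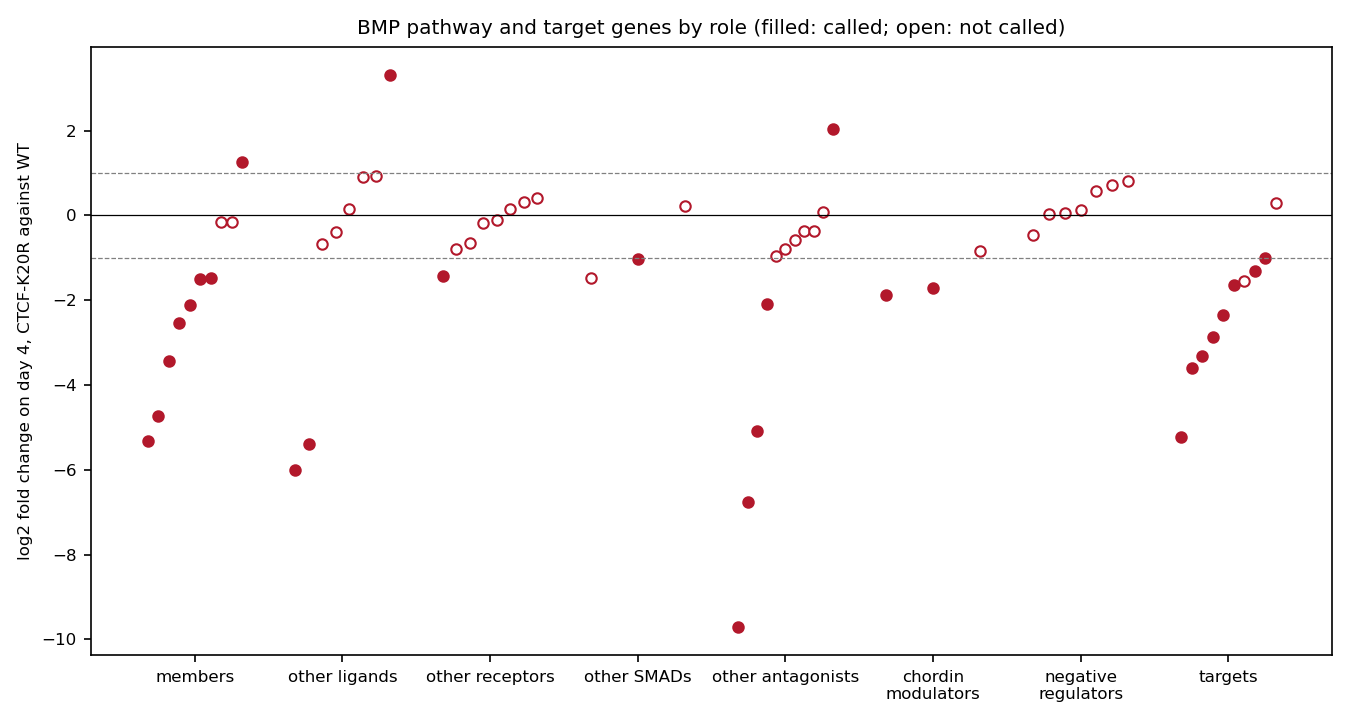
Log2 fold change on day 4 of CTCF-K20R against WT for the 10 genes, the 40 other pathway genes and the 10 targets tested, by role; filled circles passed the rule for a call and open circles did not, and dashed lines mark 1 and -1. Filled circles below -1 occur in each role but the negative regulators, and no circle of the negative regulators is filled; for Bmp5 and Gdf10, at or under the limit of detection in CTCF-K20R, the height depends on the 1 added before taking logs.

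Markers of cell types moved with these genes. The 10 markers of primitive streak and mesoderm summed to 43595 and 43712 in WT EBs, with all 10 above the limit of detection, and to 4938 and 4927 in CTCF-K20R EBs, with 8 above it and Mesp1 and Msgn1 at or under it. The 7 markers of the organizer and axial tissue, the source of chordin and noggin in the embryo, summed to 24948 and 25149 in WT EBs and 3563 and 3596 in CTCF-K20R EBs, with Noto at or under the limit in CTCF-K20R. Otx2, which was not called (log2 fold change -0.12), held 95.5% and 95.6% of the sum in CTCF-K20R EBs, and the other 6 summed to 21238 and 21440 in WT EBs and 161 and 160 in CTCF-K20R EBs. The 8 pluripotency markers summed to 15541 and 15654 in WT EBs and 32146 and 31426 in CTCF-K20R EBs, most of it from Pou5f1. Pou5f1 was not called (log2 fold change 0.78). Among the others Nanog (1.66), Sox2 (2.39), Zfp42 (1.17) and Esrrb (2.65) rose, and Klf4 fell (-1.48). The neural list summed to 1931 to 1969 in WT EBs and 2675 to 2711 in CTCF-K20R EBs, 93.6% to 97.6% of it from Nes, and the other 4 markers to 47.9 to 48.0 and 170 to 173. Of the neural markers Pax6 (log2 fold change 2.61) and Sox1 (4.17, under the limit of detection in WT EBs) were called higher and none lower. The visceral endoderm list summed to 56.1 to 61.7 and 235 to 294. Of this Rhox5 held 174 to 200 in CTCF-K20R EBs, and it was already higher in CTCF-K20R mESCs (410 and 444, against 30.7 and 34.2 in WT), while Hnf4a read 15.8 and 17.4 in WT EBs and 13.5 and 0.486 in CTCF-K20R EBs. Without Rhox5 the sum was 36.0 and 38.3 in WT EBs and 93.9 and 61.7 in CTCF-K20R EBs. Amn was called higher on day 4 (log2 fold change 1.64, adjusted p = 0.0383 from limma). Cubn was higher without a call (1.71, adjusted p = 0.0823 from limma). The fibroblast list summed to 487 to 505 and 680 to 745, with Thy1 at 222 to 226 and 526 to 580. Without Thy1 the fibroblast sum was 266 to 279 in WT EBs and 154 to 165 in CTCF-K20R EBs. Postn read 51.9 and 51.6 in WT EBs and 0 in CTCF-K20R EBs, and Col1a1 and Col1a2 were lower without a call. Col3a1 was called higher, at 4.15 and 3.50 in WT EBs and 62.9 and 22.4 in CTCF-K20R EBs. Dcn, which was not tested, also read higher in CTCF-K20R EBs (15.4 and 14.9, against 1.05 and 0.88 in WT EBs). In these whole-culture samples, fewer cells of a type and less RNA per cell cannot be told apart, and the part of cell makeup in the levels of the BMP genes was not tested.

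For each of the 8 genes called on day 4, the genes tested were ranked by likeness of pattern, as the root mean square difference of mean-centred log2 values over the 6 samples. The closest to Chrd were Sema3a (0.099), Mamld1 (0.292) and Gata4 (0.312). In WT mESCs, CTCF-K20R mESCs and CTCF-K20R EBs, Sema3a averaged 4.23, 2.94 and 5.61 normalized counts and Mamld1 2.69, 1.66 and 2.47. These are near the limit of detection, so the distances of both depend on the 1 added before taking logs. The closest to Bmp2 were Gna14, Wnt5a and Rasgrp3 (0.621 to 0.629), to Bmp4 Cabp1, Lama1 and Ttc28 (0.221 to 0.266), and to Bmp7 Sema7a, Hmga2 and Kcnf1 (0.196 to 0.236). The closest to Smad1 were Samd14, Stx17 and Efnb3 (0.126 to 0.152), to Smad6 Vgll4, Rab38 and Crabp1 (0.200 to 0.268), and to Bambi Orai2, Kank1 and Galnt1 (0.0918 to 0.114). Smad7 had the closest matches, in Gm17349 (0.0398), Msh6 (0.0663) and Plekhg5 (0.0713). With 4 groups such a likeness describes levels in these samples only.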

How the data were processed

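RNA was sequenced from 2 libraries for each genotype and day. The authors used Trim_Galore 0.4.4 for trimming, salmon 0.9.1 for quantification on mm10, tximport 1.20.0 for gene totals and DESeq2 1.10.1 for normalization. The deposited signal is these normalized counts for each gene and library. The annotation release and use of strand are not given in the sources used here. Whole reads could not be recovered, so no count model was run.

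The model was fitted on log2(value + 1) by limma 3.58.1 (R 4.3.3), with 4 group means over 6 samples and eBayes with a trend on the mean. The residual degrees of freedom were 2 and the prior ones 3.51. Benjamini-Hochberg adjustment covered the 15767 genes that averaged 10 or more. A call needed more than 1 in absolute log2 fold change together with an adjusted p under 0.05, and the difference between days was called by the adjusted p alone. The fit was also run on simulated data with far fewer changed genes than were called here, and only on day 4. That setting differs from these data, so it does not give the error rates here. Positions came from GENCODE vM21 (GRCm38), with a position for 15664 genes tested, and promoter windows from RefSeq (GRCm38.p6). Python 3.11.15 with numpy 2.4.6, pandas 2.3.3 and matplotlib 3.10.9 was used for the rest.

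Groups and replicate numbers came from the sample labels, and all 8 columns were matched by name. Named are the 10 genes, every pathway or target gene called on either day, and the 3 closest patterns of each gene called on day 4. The genes and lists were chosen with earlier results of these data known. Alternatives covered the pseudocount, the filter, the averaging of WT pairs, a replicate block, the libraries in the fit, the scaling, the trend, the thresholds, the neighbours' median and each library left out. The chromatin data of the study were not used here.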

Additional observations from a re-analysis of the deposited data

Results flagged for a closer look

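For 7 of the 10 BMP pathway genes the CTCF-K20R against WT difference was itself different in EBs and in mESCs (limma, adjusted p under 0.05), 6 in the lower and 1 in the higher direction, against 12% and 14.7% of all genes tested. The difference (day 4 minus day 0, log2) was -4.15 for Chrd, -2.75 for Smad6, -2.71 for Bmp7, -2.15 for Smad1, -1.81 for Bmp4, -1.54 for Bambi and 1.44 for Smad7. Without replicate 1 of the CTCF-K20R EBs 3 of the 6 passed in the lower direction (Bmp4, Smad6 and Bambi were lost), and without replicate 2 it was 4 (Smad6 and Bambi were lost). Smad1 is the 1 gene of these whose libraries lay above WT on day 0 and below WT on day 4 with an adjusted p under 0.05 on both days. Groups of 2 libraries are too small to look for a library far from the others.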

How the results depend on the processing

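On day 4 the counts of 7 lower and 1 higher BMP pathway genes stayed within 1.5 times under every alternative. Smad6 lost its call with no trend (adjusted p = 0.0525, limma) and without replicate 1 of the CTCF-K20R EBs. Of all alternative values, 1627 kept their direction and side of the threshold, 84 fell short of it, 27 newly passed it and 4 changed sign. The cause was not tested. The sign changes were all on day 0: Bmp4 at 0.027 after subtracting the neighbours' median, Bambi at -0.084 without replicate 2 of the CTCF-K20R mESCs (to 0.23 without other libraries), and Rgma at -0.054 without replicate 1 of the WT mESCs and -0.10 without replicate 2 of the CTCF-K20R mESCs (to 0.19 without others).

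With all 8 libraries as separate samples, and likewise with the replicate block, 1 of the 10 genes was called lower on day 0, and of the other pathway genes 2 were called higher and 4 lower on day 0. With no minimum fold, 1 of the 10 was higher on day 0, 5 rose and 4 fell in CTCF-K20R over the days, pathway genes counted 6 higher on day 4 and 2 higher and 5 lower on day 0, and 2 targets were higher on day 0. At an adjusted p under 0.01, CTCF-K20R over the days gave 0 higher and 1 lower, pathway genes 1 higher on day 4 and 0 in each direction on day 0, and targets 4 lower on day 4 and 0 higher on day 0. With no trend, CTCF-K20R over the days gave 1 lower, and pathway genes and targets 0 on day 0. With only the libraries compared, pathway genes and targets gave 0 on day 0. Quantile normalization gave 0 of the 10 higher over the days in CTCF-K20R, and 2 pathway genes higher and 1 lower on day 0. A pseudocount of 10 gave 0 of the 10 higher over the days, and one of 0.1 gave 0 targets higher on day 0. With no filter 1 pathway gene was lower and 0 targets were higher on day 0, and a filter at a mean of 50 gave 1 pathway gene higher and 6 lower on day 4.

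Leaving out 1 library at a time, the difference between days gave 3 to 6 of the 10 lower, CTCF-K20R over the days 0 to 1 higher and 1 to 2 lower, pathway genes 1 to 2 higher on day 4 and 0 to 1 higher and 0 to 2 lower on day 0, and targets 5 to 8 lower on day 4 and 0 to 1 higher on day 0. Such a fit assumes that a lone sample varies like the other groups. Leaving out a CTCF-K20R library also gave fewer calls over all genes, and none on day 0 where it was an EB library. The day 4 calls over all genes changed little where it was an mESC library.

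Same-numbered libraries did not deviate together (correlations of -0.031 to 0.030 between groups). Correlations that involve a WT group could not show a pairing, since the spread between WT replicates was smaller than counting error would give. Between CTCF-K20R mESCs and CTCF-K20R EBs the correlation was -0.010, so there was no sign that the numbers pair those samples. With the replicate block 8 of the 10 passed lower for the difference between days, and on day 4 the calls were 7 lower and 1 higher. Over all genes, 44.4% of the calls on day 4 were higher, 53.6% after quantile normalization and 36.7% with the same total per library, and all 10 genes kept their direction on day 4 under both scalings.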
